A study of Mus musculus with 27 samples.

Results

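The 37 genes described here make, control or remove cholesterol and fatty acids. They were chosen by symbol from the deposited gene table, which holds 51826 features, and each symbol occurred once. By role they fall into 7 genes of the mevalonate steps between the thiolase and farnesyl diphosphate, 11 enzymes between squalene and cholesterol, 6 genes of the SREBP control system, 6 of fatty acid synthesis, and 7 of cholesterol efflux, sensing and turnover. All 37 passed the filter on low counts, as did 19969 genes in all. The RNA came from hippocampus of ICR mice, an outbred strain, after ovariectomy (OVX), which removes the ovaries, or a sham operation. The mice then received xanthohumol (Xmo), a prenylated flavonoid of hops, or saline. RNA sequencing covered 4 OVX Xmo, 4 OVX saline, 4 sham Xmo and 3 sham saline libraries, and miRNAs were sequenced in 3 libraries per group. The labels give no age, dose or duration, nothing states that replicates are separate animals, and so p-values measure only the spread between samples.

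Cholesterol is made from acetyl-CoA through mevalonate, farnesyl diphosphate, squalene and lanosterol. When sterols are scarce in the endoplasmic reticulum, Scap carries the SREBP transcription factors to the Golgi for cleavage, and when sterols are plentiful the Insig proteins hold Scap back. The adult brain makes its own cholesterol behind the blood-brain barrier, astrocytes pass it to neurons on apolipoprotein E, and neurons clear the surplus through the hydroxylase Cyp46a1.

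Total counts ran from 20.8 to 39.1 × 1e+06 per mRNA library. All 12 hippocampal neuron markers, among them Prox1 and Neurod6, were above 0 in all 15 libraries and summed to between 1212 and 1740 TMM-scaled CPM (counts scaled to 1e+06 per library, the unit of every level below unless TPM is stated). Choroid plexus markers summed to between 77.9 and 8571 CPM and thalamus and habenula markers to between 113 and 788 CPM, so levels of neighbouring tissue markers differed between libraries. Mitochondrially encoded genes took 14.9% ± 2.03 of the counts in OVX Xmo (SD, n = 4), 14.99% ± 2.17 in OVX saline (n = 4), 17.2% ± 2.42 in sham Xmo (n = 4) and 27.0% ± 7.75 in sham saline (n = 3), where sham saline 2 reached 35.4%. In bulk tissue, fewer cells of a type and less RNA per cell cannot be told apart.

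Transcripts of cholesterol transport and desaturation were the most abundant of the 37 genes when levels were corrected for length. Apoe, the main lipid carrier of the brain, averaged 1415 TPM over the 15 libraries, with a range of 769.9 to 1761 TPM. Scd2, a desaturase that makes monounsaturated fatty acids, averaged 392 TPM, with a range of 171 to 520.4 TPM that did not reach that of Apoe. Hmgcs1, which condenses acetyl-CoA into HMG-CoA, averaged 98.4 TPM with a highest library at 124 TPM, below every library of Scd2. Below Hmgcs1 each gene overlapped its neighbour in the order, so that order is not resolved. Ch25h, which hydroxylates cholesterol and is induced in macrophages by inflammatory signals, was the lowest, at 0.805 TPM on average and between 0.156 and 4.73 TPM. Its range overlapped that of Nr1h3, a sterol-sensing nuclear receptor, whose lowest library was at 2.11 TPM. The mean TPM was lowest in sham saline for 36 of the 37 genes, the exception being Ch25h, whereas by CPM sham saline was lowest for 20 of the 37. TPM values sum to the same total in each library and are not TMM-scaled. The share of all genes with their lowest mean in sham saline was not counted, so neither number is a trait particular to the 37 genes.

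**Figure D1:**
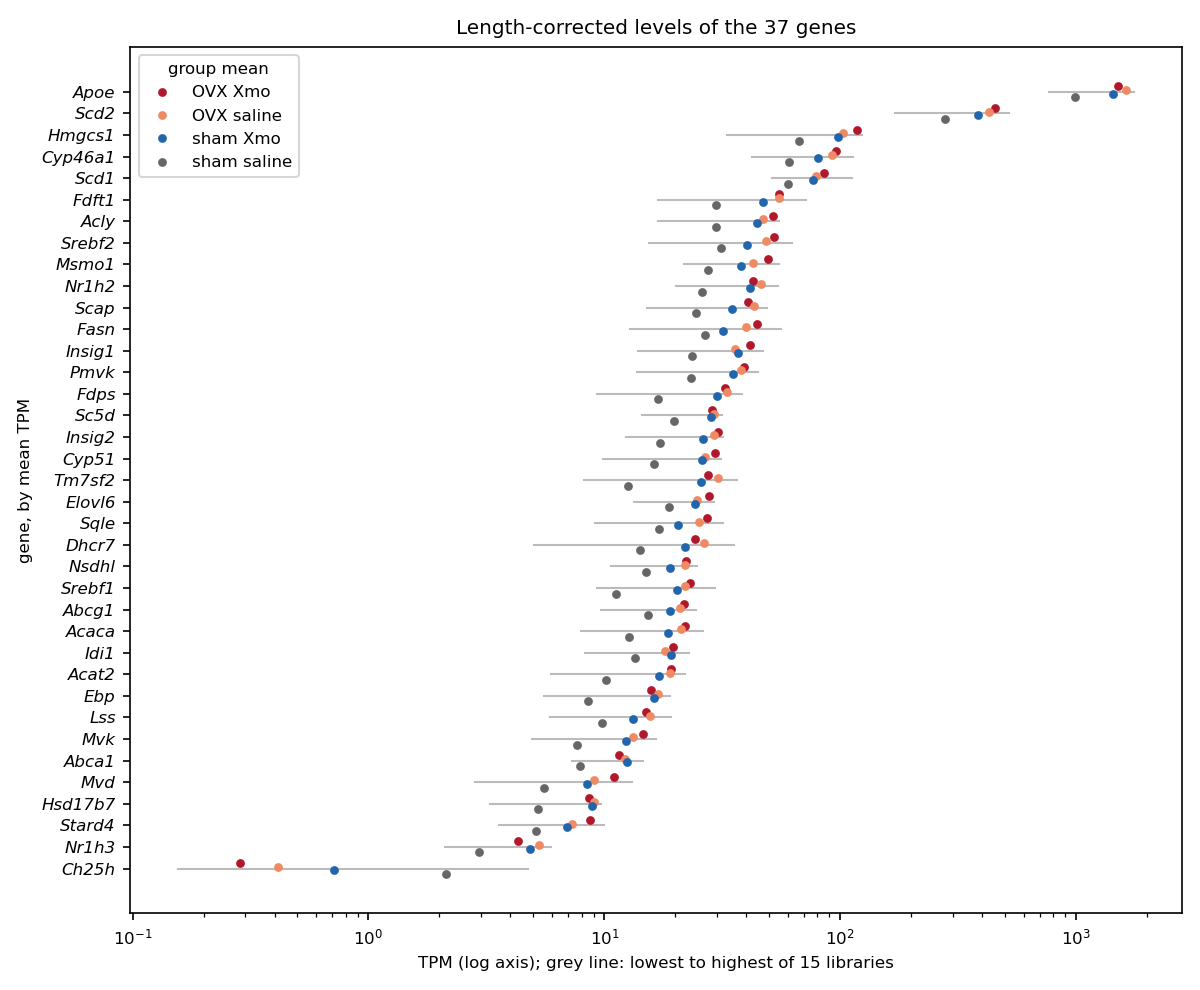
Length-corrected level of each of the 37 genes in TPM on a log axis, ordered by the mean over 15 libraries. Points are group means (n = 4 for OVX Xmo, OVX saline and sham Xmo, n = 3 for sham saline) and grey lines run between the lowest and highest library, with Apoe at 1415 TPM on top and Ch25h at 0.805 TPM at the bottom.

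Among the sham saline libraries 1 stood apart. Sham saline 2 held the lowest CPM of all 15 libraries in 21 of the 37 genes and in 14 of the 18 enzymes of the mevalonate and sterol steps. Over all genes tested, 16.0% were lowest in that library and 14.96% were highest there. OVX Xmo 2 held the highest CPM in 11 of the 37 genes and in 3 of the 18 enzymes, against 7.27% of all genes. It also had the highest sum of thalamus and habenula markers, 788 CPM. Summed over the 18 enzymes, the 4 OVX Xmo libraries had between 736 and 751 CPM and lay above each of the other 11 libraries. The sums were between 684 and 712 CPM in OVX saline, between 611 and 710.2 CPM in sham Xmo, and 704, 518 and 665 CPM in sham saline 1 to 3. Hmgcs1 was the largest part of each sum, with 187 to 212 CPM in OVX Xmo and 159 to 179 CPM in OVX saline. OVX Xmo 4 had a sum of 744.3 CPM, of which Hmgcs1 was 212.2 CPM. Sham Xmo 2 had 710.2 CPM, of which Hmgcs1 was 175.7 CPM. Less Hmgcs1, OVX Xmo 4 thus lay below sham Xmo 2. Taken singly, 1 of the 7 mevalonate genes (Hmgcs1) and 0 of the 11 sterol enzymes did not overlap between OVX Xmo and OVX saline, against 3.11% of all genes. Between OVX Xmo and sham Xmo these counts were 0 and 1, against 5.88%. The sums are a description and were not tested, and the separation of OVX Xmo did not hold for the enzymes without Hmgcs1.

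**Figure D2:**
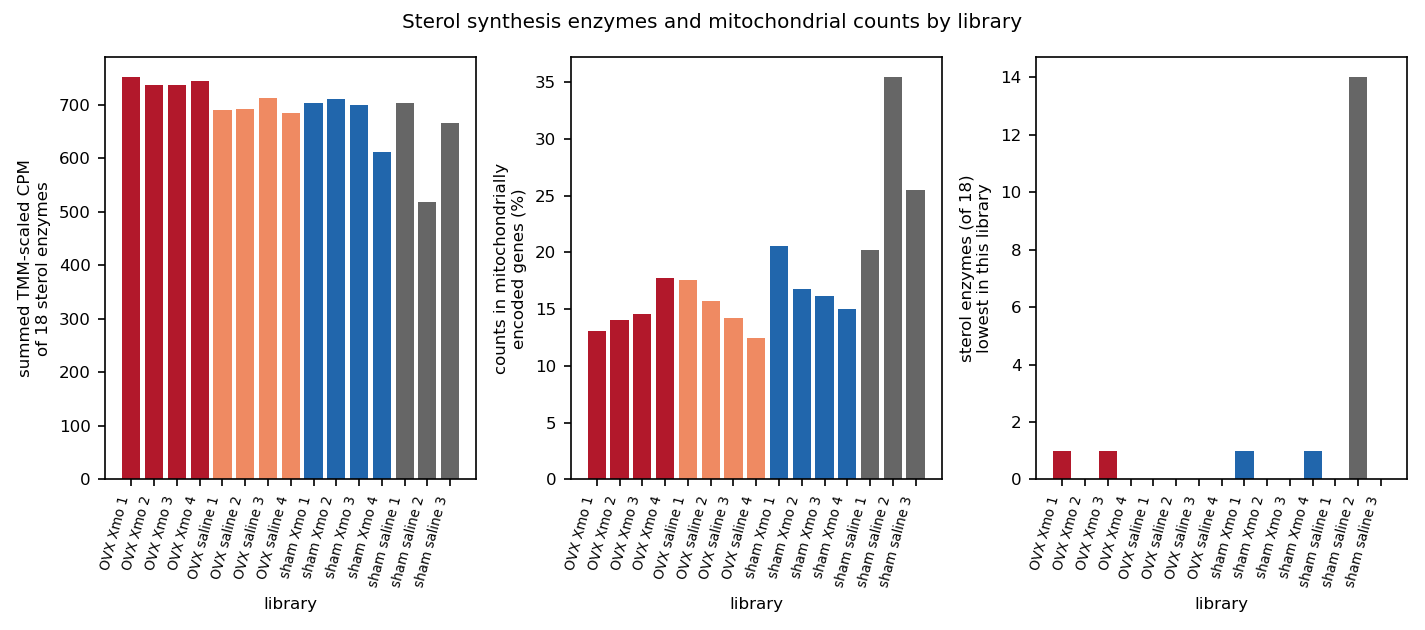
Left, summed TMM-scaled CPM of the 18 enzymes of the mevalonate and sterol steps in each of 15 libraries; middle, the percentage of counts in mitochondrially encoded genes; right, how many of the 18 enzymes had their lowest level in that library. Sham saline 2 has the lowest enzyme sum (518 CPM), the highest mitochondrial share (35.4%) and the lowest level of 14 enzymes.

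Ovariectomy alone was read in OVX saline against sham saline, where 3 enzymes were higher and Ch25h was lower. By edgeR's quasi-likelihood test with Benjamini-Hochberg adjustment, 4 of the 37 genes passed at an adjusted p under 0.05, against 6.24% of all genes tested. DESeq2 passed the same 4, against 12.4% of the genes to which it gave an adjusted p, and at an unadjusted edgeR p under 0.05 there were 9 of the 37 (24.3%), against 24.7% of all genes. Acat2, the cytosolic acetoacetyl-CoA thiolase that begins the mevalonate steps, rose, as did Tm7sf2, a sterol reductase, and Ebp, a sterol isomerase, both of which act after lanosterol. The median log2 fold change of the 37 genes was 0.09, against 0.01 over all genes, and 26 of the 37 were positive. Without sham saline 2 the median was 0.02 with 19 positive, and without sham saline 1 it was 0.17 with 28 positive. With all libraries, by role, positive values were found in 6 of 7 mevalonate genes, 8 of 11 sterol enzymes, 5 of 6 SREBP control genes, 3 of 6 fatty acid synthesis genes and 4 of 7 efflux and turnover genes.

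Tm7sf2 (chromosome 19, 6062821 to 6068373, minus strand, GRCm38) had 15.7, 19.3, 18.8 and 16.9 CPM in OVX saline, against 11.7, 10.5 and 11.5 CPM in sham saline. It had 19.0, 16.8, 16.5 and 12.7 CPM in OVX Xmo and 15.1, 15.1, 16.2 and 16.7 CPM in sham Xmo. Each of the 12 libraries with OVX, Xmo or both was above each sham saline library. The log2 fold change for OVX saline against sham saline was 0.65 ± 0.13 (SE), with an edgeR adjusted p of 0.0170. On the same strand, 9.58% of its span overlaps Vps51, whose reads could be shared with it.

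Ebp (chromosome X, 8185329 to 8193512, minus strand) had 14.1, 15.2, 13.0 and 13.8 CPM in OVX saline, against 9.81, 9.46 and 9.65 CPM in sham saline. Its levels were 15.2, 12.6, 12.6 and 12.1 CPM in OVX Xmo and 11.4, 13.0, 15.6 and 15.8 CPM in sham Xmo. Here too the 3 sham saline libraries, sham saline 2 included, lay between 9.46 and 9.81 CPM, below the other 12. The log2 fold change for OVX saline was 0.54 ± 0.13 (SE), with an edgeR adjusted p of 0.0293.

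Acat2 (chromosome 17, 12942890 to 12960747, minus strand) had 19.7, 20.3, 19.3 and 21.4 CPM in OVX saline, against 18.3, 12.7 and 14.4 CPM in sham saline. In OVX Xmo it had 20.4, 20.3, 20.6 and 19.7 CPM, and in sham Xmo 18.5, 19.8, 20.1 and 16.8 CPM. OVX saline did not overlap sham saline, but sham saline 1 lay close to the others, and sham Xmo 4 was below it. The log2 fold change for OVX saline was 0.42 ± 0.12 (SE), with an edgeR adjusted p of 0.0475.

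Ch25h (chromosome 19, 34473786 to 34475135, minus strand) was counted 8, 11, 8 and 8 times in OVX saline, against 18, 141 and 24 times in sham saline. The counts were 4, 4, 9 and 6 in OVX Xmo and 27, 12, 12 and 24 in sham Xmo. As levels this was 0.200, 0.374, 0.260 and 0.325 CPM in OVX saline, against 0.629, 6.77 and 0.985 CPM in sham saline. Sham saline 2 stood far above the rest, although the groups did not overlap without it either. The log2 fold change for OVX saline was -3.25 ± 0.71 (SE), with an edgeR adjusted p of 0.0224, and it was -1.48 without sham saline 2, with an adjusted p of 0.168. On the opposite strand, 24.3% of its span overlaps Gm26902, which had a mean count of 30.5 against 21.1 for Ch25h, and the labels do not say whether reads were counted by strand.

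The 4 calls depended on single libraries, and those of Acat2, Ebp and Ch25h also on the processing. Over the 15 fits that left out a library in turn, the edgeR adjusted p ran from 0.00915 to 0.0607 for Tm7sf2, 0.0170 to 0.0864 for Ebp, 0.0153 to 0.187 for Acat2 and 0.0109 to 0.168 for Ch25h. Tm7sf2 lost its call without OVX saline 2, sham saline 2 or sham saline 3, with log2 fold changes of 0.59, 0.60 and 0.67. Ebp lost it without any 1 of the OVX saline or sham saline libraries, with log2 fold changes between 0.48 and 0.56. Acat2 lost it in 12 of the 15 fits, all but those without OVX Xmo 4, sham Xmo 1 or sham saline 1, and Ch25h in 5 of them, which were those without sham saline 2 or any 1 OVX saline library. Acat2 also missed the threshold with RLE size factors, without a filter on low counts and in the fit of both groups alone, with edgeR adjusted p of 0.0524, 0.0841 and 0.0999. Ebp missed it without the filter, at an adjusted p of 0.0518. With the replicate block Acat2, Ebp and Ch25h missed it, with edgeR adjusted p of 0.0938, 0.0800 and 0.0739.

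Markers of other cell types moved in the same comparison. Of 10 endothelial markers, 3 fell in OVX saline by the edgeR test, and the list summed to between 190 and 222 CPM in OVX saline, against 249 to 375 CPM in sham saline. Of the blood list, which holds 4 red cell and 6 neutrophil genes, 4 of 9 tested fell, and sums were between 735 and 1132 CPM in OVX saline, against 492 to 2239 CPM in sham saline. Lcn2, a neutrophil and acute phase gene, had 98.6 CPM in sham saline 2 and at most 8.42 CPM in any other library, while S100a8 was at 0 in 5 libraries and Retnlg in 6. Of 10 astrocyte markers 1 rose and of 8 microglia markers 2 rose, beside the 6.24% of all genes that passed in either direction. No choroid plexus, meninges or thalamus and habenula marker passed, but most had lower levels in OVX saline. Values were below 0 for all 10 choroid plexus markers (median log2 fold change -1.64), 8 of 10 meninges and fibroblast markers (-0.42) and 8 of 9 thalamus and habenula markers (-0.55). Choroid plexus sums overlapped, with 79.9 to 469 CPM in OVX saline, against 212 to 1280.25 CPM in sham saline. The part of these cell types and of the mitochondrial share in the 4 calls was not tested.

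**Figure D3:**
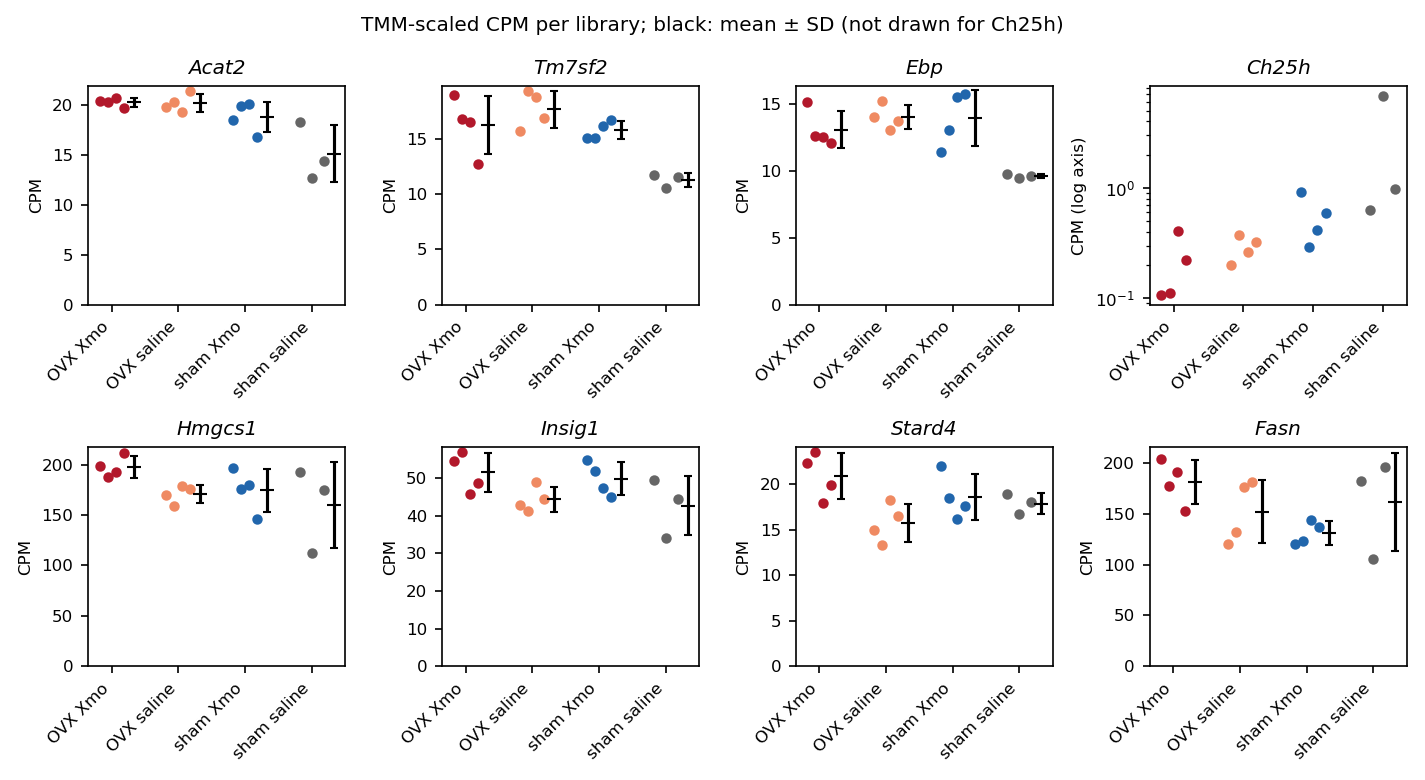
TMM-scaled CPM in every mRNA library for 8 of the genes, with groups left to right as OVX Xmo, OVX saline, sham Xmo and sham saline and 1 point per library; bars are mean ± SD, left out for Ch25h, which has a log axis. The 3 sham saline points lie below all other points for Tm7sf2 and Ebp, and 1 sham saline point of Ch25h lies at 6.77 CPM.

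Without regard to the test, 8 of the 37 genes did not overlap between OVX saline and sham saline, 6 of them higher in OVX saline, against 24.5% of all genes tested in either direction. Genes listed for a lack of overlap, here and below, were named after their values were seen. These were Acat2, Tm7sf2, Ebp, Ch25h, the prenyl synthase Fdps, the squalene synthase Fdft1, the sterol reductase Hsd17b7 and, lower in OVX saline, the fatty acid elongase Elovl6. Dhcr7, the last reductase on the way to cholesterol, was singled out after its values were seen. It had between 18.6 and 29.1 CPM in the 12 libraries with OVX, Xmo or both, against 24.4, 7.59 and 25.8 CPM in sham saline, where only sham saline 2 stood apart.

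Promoters of 30 of the 37 genes were available from RefSeq (GRCm38.p6) as windows of 300 bases, 250 before and 50 after the start site. No window was available for Fdps, Fdft1, Sqle, Stard4, Scd1, Scd2 and Abcg1. The windows present were searched without regard to level. These windows were searched on both strands for the sterol regulatory element as TCACNCCAC, for the NF-Y box CCAAT and for the Sp1 box GGGCGG, motifs of the factors that act with SREBPs on sterol genes. The sterol element in this form was found in 1 of the 30 promoters (3.33%), that of Hmgcs1, and in 1.44% of 27025 genes. Other forms of the element were not searched for, so the other promoters are not shown to lack one. The 27025 genes were not limited to those past the filter on low counts. CCAAT was found in 21 (70%, against 41.1% of all genes) and GGGCGG in 22 (73.3%, against 38.2%). A match describes the letters only. Shown are the promoter with the sterol element and those of the 3 enzymes that rose, on the strand of the gene, with motif matches in capitals, none of which overlap.
Hmgcs1, chr13:119690101-119690400, plus strand: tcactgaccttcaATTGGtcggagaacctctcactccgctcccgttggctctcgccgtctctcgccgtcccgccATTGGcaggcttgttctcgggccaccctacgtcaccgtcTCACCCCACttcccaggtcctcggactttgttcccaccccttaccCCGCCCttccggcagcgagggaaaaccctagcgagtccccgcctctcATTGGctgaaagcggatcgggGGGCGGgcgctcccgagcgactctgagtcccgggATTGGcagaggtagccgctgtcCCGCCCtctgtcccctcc
Acat2, chr17:12960676-12960975, minus strand: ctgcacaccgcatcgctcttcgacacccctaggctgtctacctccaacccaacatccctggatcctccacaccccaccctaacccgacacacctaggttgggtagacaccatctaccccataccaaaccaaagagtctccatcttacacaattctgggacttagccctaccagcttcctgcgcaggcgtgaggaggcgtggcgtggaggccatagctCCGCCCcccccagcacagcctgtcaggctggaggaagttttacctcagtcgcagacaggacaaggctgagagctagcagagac
Tm7sf2, chr19:6067801-6068100, minus strand: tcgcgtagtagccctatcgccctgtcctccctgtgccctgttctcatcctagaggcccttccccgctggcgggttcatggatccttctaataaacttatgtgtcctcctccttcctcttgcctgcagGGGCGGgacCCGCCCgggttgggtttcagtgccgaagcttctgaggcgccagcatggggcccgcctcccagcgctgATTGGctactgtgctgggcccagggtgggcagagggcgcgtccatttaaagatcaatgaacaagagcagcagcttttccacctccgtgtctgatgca
Ebp, chrX:8193463-8193762, minus strand: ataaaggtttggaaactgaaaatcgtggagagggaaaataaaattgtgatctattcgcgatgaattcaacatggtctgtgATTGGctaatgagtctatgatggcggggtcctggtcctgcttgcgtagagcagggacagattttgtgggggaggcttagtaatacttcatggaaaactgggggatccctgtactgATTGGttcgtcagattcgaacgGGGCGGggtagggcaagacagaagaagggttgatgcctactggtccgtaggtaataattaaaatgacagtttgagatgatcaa
In Hmgcs1 the sterol element begins 137 bases before the start site and lies among 4 CCAAT and 3 GGGCGG matches. Acat2 held 1 GGGCGG and no CCAAT, Tm7sf2 held 1 CCAAT and 2 GGGCGG, and Ebp held 2 CCAAT and 1 GGGCGG. The Tm7sf2 window lies wholly within the span of the counted gene, which on the minus strand begins at 6068373. The RefSeq start site of Tm7sf2 therefore differs from that of the counted gene, and sequence before the latter was not searched.

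Xanthohumol after ovariectomy was read in OVX Xmo against OVX saline, where none of the 37 genes passed the test. By edgeR 0 of the 37 genes passed, against 0% of all genes tested, and by DESeq2 0 of the 37 and 2 of all genes (0.00576%) passed. At an unadjusted p under 0.05 there was 1 of the 37 genes, Stard4 (2.7%), and 834 of all genes (4.18%). The median log2 fold change was 0.07, against 0.00 over all genes, and 27 of the 37 were positive. Single libraries moved that median, to 0.02 without OVX Xmo 2 or without OVX saline 1, 0.04 without OVX Xmo 1 and 0.10 without OVX saline 3, with between 23 and 29 positive over the 15 fits without a library. With all libraries the positive genes were all 6 SREBP control genes, all 6 fatty acid synthesis genes, 6 of 7 mevalonate genes, 7 of 11 sterol enzymes and 2 of 7 efflux and turnover genes. All 10 choroid plexus markers, all 10 meninges and fibroblast markers, all 9 thalamus and habenula markers and all 9 blood genes tested also had positive values, and none of them passed. Their median log2 fold changes were 1.21, 0.50, 0.56 and 1.65, and their part in the values of the 37 genes was not tested. The 3 genes with the smallest p, none of which passed, were Stard4, Insig1 and Elovl6.

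Stard4, which carries cholesterol between membranes and is a target of SREBP, had 22.3, 23.5, 17.9 and 19.9 CPM in OVX Xmo, against 14.98, 13.3, 18.2 and 16.5 CPM in OVX saline. It had 22.0, 18.5, 16.2 and 17.6 CPM in sham Xmo, against 18.9, 16.7 and 17.98 CPM in sham saline. OVX Xmo and OVX saline overlapped only between OVX Xmo 3 and OVX saline 3. The log2 fold change was 0.41 ± 0.12 (SE), with an edgeR adjusted p of 0.998.

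Insig1, which retains Scap and is itself induced by SREBP, had 54.6, 57.1, 45.8 and 48.9 CPM in OVX Xmo, against 42.9, 41.2, 49.0 and 44.6 CPM in OVX saline. In sham mice it had 54.8, 52.0, 47.5 and 45.1 CPM with Xmo, against 49.6, 34.1 and 44.5 CPM with saline. The groups overlapped, and the log2 fold change in OVX mice was 0.22 ± 0.11 (SE, edgeR adjusted p = 0.998). Elovl6, which lengthens fatty acids, had 72.2, 79.9, 72.5 and 86.4 CPM in OVX Xmo, against 68.6, 69.5, 71.7 and 70.1 CPM in OVX saline. It did not overlap, with a log2 fold change of 0.15 ± 0.08 (SE, edgeR adjusted p = 0.998).

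Hmgcs1 had 198, 187, 193 and 212 CPM in OVX Xmo, against 170.2, 159, 179 and 176 CPM in OVX saline. It had 197, 176, 180.1 and 146 CPM in sham Xmo, against 193, 112 and 175 CPM in sham saline. OVX Xmo lay above OVX saline in every library, with a log2 fold change of 0.21 ± 0.14 (SE, edgeR adjusted p = 0.998). Hmgcs1 and Elovl6 were the 2 of the 37 genes without overlap in this comparison, against 3.11% of all genes tested.

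**Figure D4:**
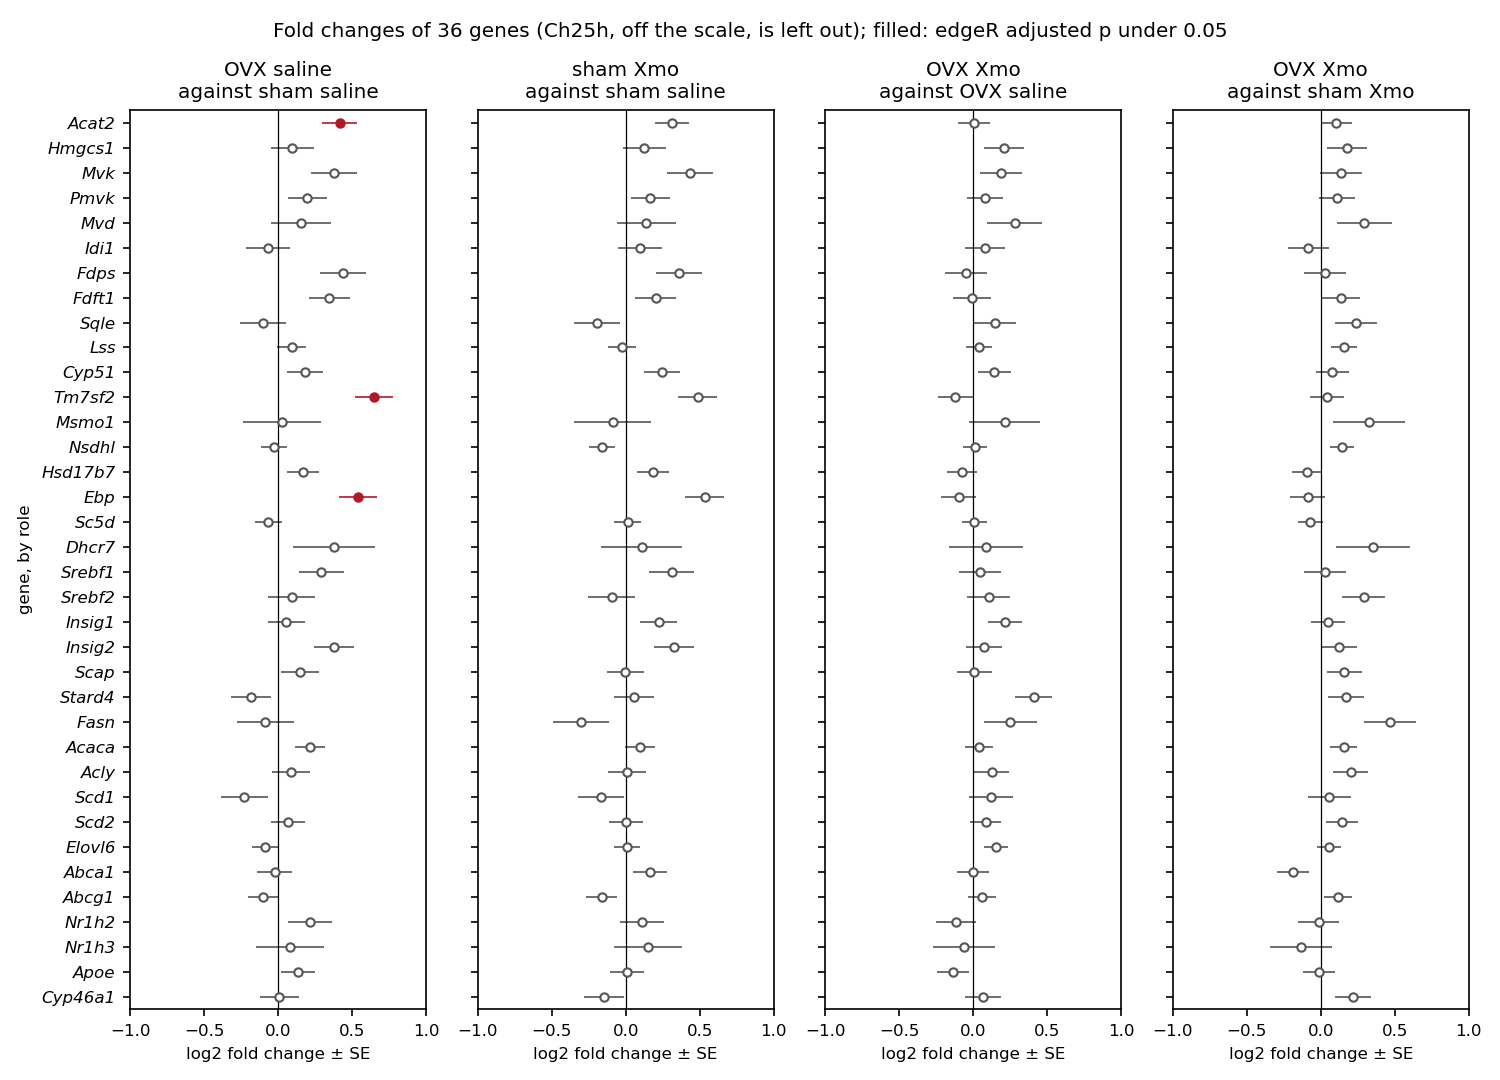
Log2 fold change ± SE of 36 of the 37 genes in 4 comparisons (Ch25h, off the scale, is left out), grouped by role; filled points passed edgeR's test at an adjusted p under 0.05. Filled points are Acat2, Tm7sf2 and Ebp in OVX saline against sham saline, and the other 3 comparisons have none.

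Xanthohumol in sham mice, sham Xmo against sham saline, shares the sham saline libraries with the comparison of OVX saline and sham saline. By edgeR 0 of the 37 genes passed, against 1.51% of all genes tested, with 7 of the 37 (18.9%) at an unadjusted p under 0.05, against 18.4% of all genes. DESeq2 passed 3 (8.11%), against 6.88% of the genes to which it gave an adjusted p. These were Tm7sf2, Ebp and Ch25h, which were also the 3 with the smallest edgeR p. Ebp averaged 13.95 ± 2.10 CPM in sham Xmo and 9.64 ± 0.175 CPM in sham saline (SD, n = 4 and 3), a log2 fold change of 0.53 ± 0.13 (SE) with an edgeR adjusted p of 0.0512. Tm7sf2 averaged 15.8 ± 0.810 CPM in sham Xmo and 11.3 ± 0.651 CPM in sham saline, a log2 fold change of 0.49 ± 0.13 (SE) with an edgeR adjusted p of 0.0682. Neither overlapped between the groups. Over the alternatives the adjusted p ran from 0.00655 to 0.219 for Ebp and 0.0153 to 0.190 for Tm7sf2.

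Ch25h had 0.914, 0.292, 0.416 and 0.594 CPM in sham Xmo, against 0.629, 6.77 and 0.985 CPM in sham saline. The groups overlapped, and the log2 fold change of -2.32 ± 0.67 (SE) had an edgeR adjusted p of 0.0875. Sham saline 2, at 6.77 CPM, stood far above the rest here too. Over the alternatives, DESeq2 included, the adjusted p of Ch25h ran from 0.0218 to 0.683. In all, 4 of the 37 genes did not overlap between sham Xmo and sham saline, each higher in sham Xmo, against 14.2% of all genes tested. They were Tm7sf2, Ebp, the mevalonate kinase Mvk and Srebf1, which encodes the SREBP of fatty acid synthesis. The median log2 fold change was 0.10, against 0.03 over all genes, and 26 of the 37 were positive with TMM scaling and 21 with RLE size factors. Without sham saline 2 the median was -0.0074 with 18 positive, below the 0.03 over all genes. It was 0.06, 0.04 and 0.06 without sham Xmo 1, 2 and 3. With all libraries and TMM scaling, all 7 mevalonate genes were positive.

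Markers of other cell types also differed between sham Xmo and sham saline. Of 11 oligodendrocyte markers 1 rose and 9 were positive, with a median log2 fold change of 0.28. Of 10 endothelial markers 1 fell and of 9 blood genes 2 fell, beside the 1.51% of all genes that passed in either direction. All 10 choroid plexus markers were positive with a median of 1.55, none passed, and their sums overlapped, with 123 to 8571 CPM in sham Xmo, against 212 to 1280.25 CPM in sham saline. The part of these cell types in the values of the 37 genes was not tested.

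In OVX Xmo against sham Xmo, ovariectomy was read under the treatment. By edgeR 0 of the 37 genes passed, against 0.01% of all genes tested, and DESeq2 passed 0 of the 37 and 75 genes in all (0.39%). At an unadjusted p under 0.05 there was 1 of the 37 (2.7%), against 10.2% of all genes, and it was Fasn, the fatty acid synthase. Fasn had 204, 177, 191 and 153 CPM in OVX Xmo, against 120.0, 123, 144 and 137 CPM in sham Xmo. It had 119.9, 132, 176 and 181 CPM in OVX saline, against 183, 106 and 196 CPM in sham saline. Every OVX Xmo library was above every sham Xmo library, while the saline libraries, between 106 and 196 CPM, overlapped both. The log2 fold change was 0.47 ± 0.18 (SE), with an edgeR adjusted p of 0.398.

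Srebf2, which encodes the SREBP of cholesterol synthesis, was second by p in OVX Xmo against sham Xmo and did not pass. It had 154, 127, 143 and 112 CPM in OVX Xmo, against 101, 102, 109.6 and 126 CPM in sham Xmo, and these overlapped. Its log2 fold change was 0.29 ± 0.15 (SE), with an edgeR adjusted p of 0.519. Ch25h, next by p, averaged 0.213 ± 0.141 CPM in OVX Xmo and 0.554 ± 0.270 CPM in sham Xmo (SD, n = 4 each), with a log2 fold change of -1.44 ± 0.74 (SE, edgeR adjusted p = 0.526). Fasn, Dhcr7 and the sterol exporter Abcg1 were the 3 of the 37 genes that did not overlap, all higher in OVX Xmo, against 5.88% of all genes tested. The median log2 fold change was 0.12, against -0.02 over all genes, and 28 of the 37 were positive. All 10 choroid plexus markers (median log2 fold change -2.09) and all 11 oligodendrocyte markers (-0.32) were negative in this comparison without passing, and their part in it was not tested.

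OVX Xmo against sham saline differed by both surgery and treatment. By edgeR 1 of the 37 genes passed, against 1.19% of all genes tested, and it was Ch25h, which fell. Its counts in OVX Xmo were low, from 4 to 9. Ch25h had 0.108, 0.112, 0.408 and 0.224 CPM in OVX Xmo, against 0.629, 6.77 and 0.985 CPM in sham saline. The groups did not overlap, and the log2 fold change was -3.76 ± 0.75 (SE) with an edgeR adjusted p of 0.0335. Without sham saline 2 it was -1.98 with an adjusted p of 0.205, and over the 15 fits without a library the adjusted p ran from 0.0109 to 0.205. In the fit of both groups alone the adjusted p was 0.186, and with the replicate block it was 0.118. The call was lost in 10 of the fits without a library and held without OVX Xmo 4, sham Xmo 1, sham Xmo 3, sham Xmo 4 or sham saline 1.

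DESeq2 gave Ch25h no adjusted p in OVX Xmo against sham saline and passed 5 others of the 37 genes (13.5%), Acat2, Mvk, Tm7sf2, Ebp and Insig2, against 7.11% of the genes to which it gave one. Their log2 fold changes by edgeR were 0.42, 0.57, 0.53, 0.44 and 0.45, with edgeR adjusted p between 0.0565 and 0.0949. At an unadjusted p under 0.05 there were 13 of the 37 genes (35.1%), and 3780 of all genes (18.9%). In this comparison 7 of the 37 did not overlap, 6 of them higher in OVX Xmo, against 14.9% of all genes tested. The median log2 fold change was 0.20, against 0.01 over all genes, and 30 of the 37 were positive, among them all 7 mevalonate and all 6 SREBP control genes. Without sham saline 2 the median was 0.11 with 28 positive.

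**Figure D5:**
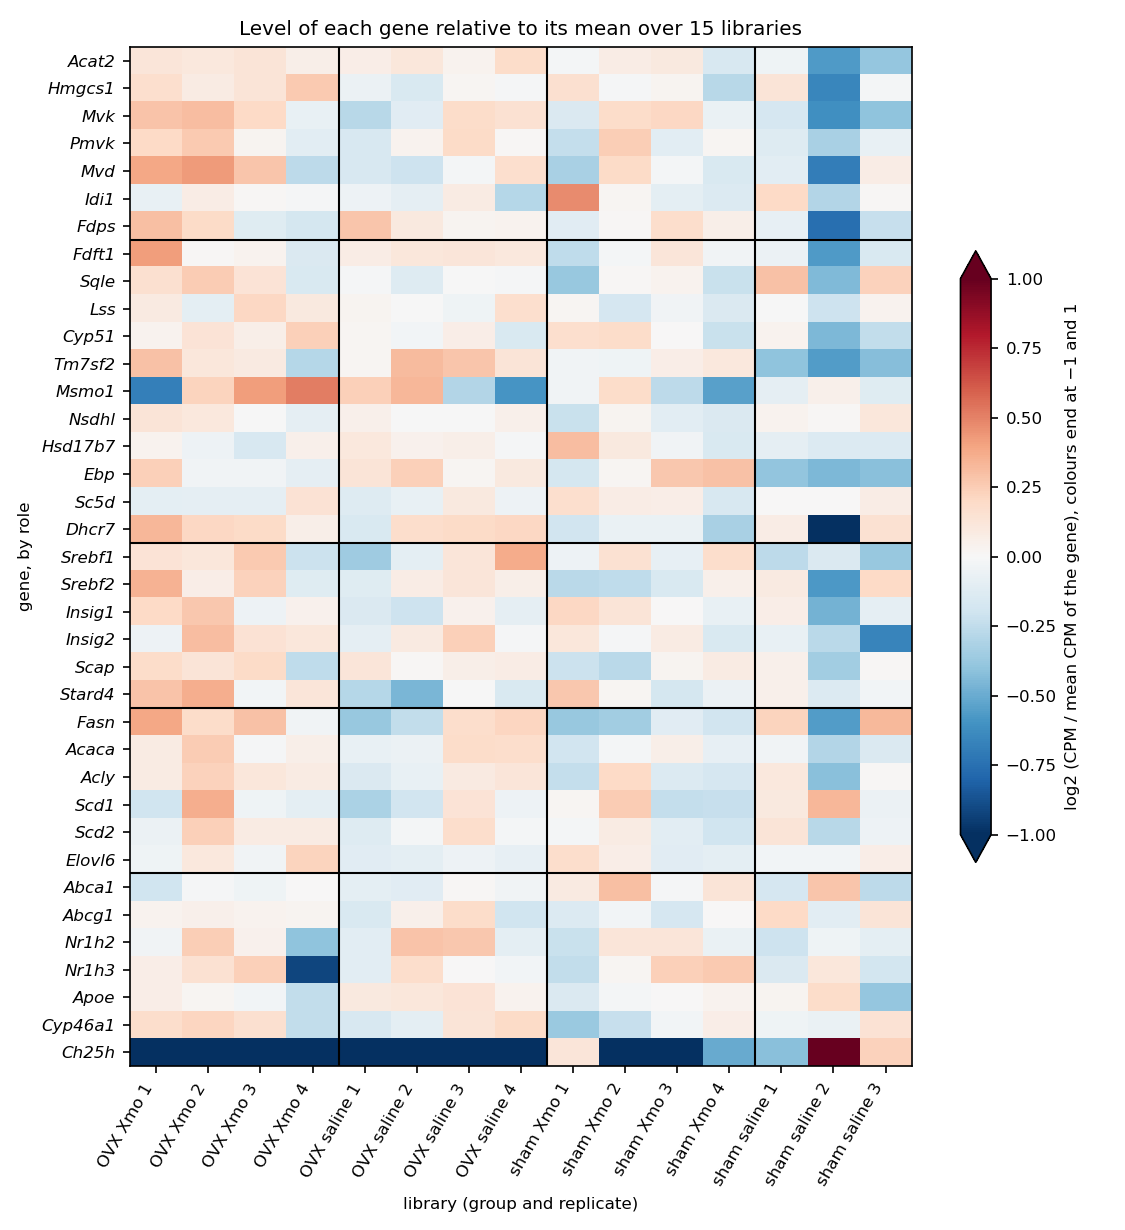
Level of each of the 37 genes in each of 15 libraries, as the log2 ratio of its TMM-scaled CPM to the mean of that gene, with genes in rows by role and libraries in columns by group. Colours end at -1 and 1. Sham saline 2 is the lowest column for 21 of the 37 genes, while Ch25h is highest there.

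The interaction, the Xmo difference after OVX less the Xmo difference after sham surgery, passed for 0 of the 37 genes by edgeR, against 0.416% of all genes tested. At an unadjusted p under 0.05 there were 3 of the 37 (8.11%), Ebp, Tm7sf2 and Fasn, against 17.4% of all genes. DESeq2 passed 2 (5.41%), Ebp and Tm7sf2, against 5.01% of the genes to which it gave an adjusted p. Ebp had an interaction of -0.63 ± 0.17 (log2, SE), with an edgeR adjusted p of 0.101. Its Xmo difference was -0.10 ± 0.12 in OVX mice and 0.53 ± 0.13 in sham mice. Tm7sf2 had an interaction of -0.61 ± 0.17, with an edgeR adjusted p of 0.108, from -0.12 ± 0.12 in OVX mice and 0.49 ± 0.13 in sham mice. Fasn had an interaction of 0.55 ± 0.26, with an edgeR adjusted p of 0.287. Over the alternatives the adjusted p ran from 0.0278 to 0.203 for Ebp, 0.0349 to 0.206 for Tm7sf2 and 0.0809 to 0.540 for Fasn. The median interaction of the 37 genes was -0.01, against -0.02 over all genes, and 17 of the 37 were positive. Over the 15 fits without a library that median lay between -0.10, without sham saline 1, and 0.11, without sham saline 2, and its sign turned in 7 of them.

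The other genes set down for full values passed in none of the 6 comparisons. Sqle, the squalene epoxidase and a rate-limiting enzyme, had 40.9, 43.6, 40.1 and 32.9 CPM in OVX Xmo, against 36.3, 33.4, 36.5 and 36.2 CPM in OVX saline. It had 28.1, 36.8, 37.4 and 31.3 CPM in sham Xmo, against 44.7, 26.9 and 42.9 CPM in sham saline. Sham saline held both the lowest and the highest library. Its largest log2 value was an interaction of 0.34 ± 0.21 (SE, edgeR adjusted p = 0.438).

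Scd2 had 1146, 1408, 1265 and 1267 CPM in OVX Xmo, against 1091, 1181, 1350.2 and 1179 CPM in OVX saline. It had 1179.7, 1267, 1114 and 1044 CPM in sham Xmo, against 1305, 984 and 1154 CPM in sham saline. The 4 groups overlapped, and no log2 fold change exceeded 0.15 in size.

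Of the genes of efflux and turnover, Abca1, which loads cholesterol onto apolipoproteins, had 53.6, 61.0, 59.7 and 61.7 CPM in OVX Xmo, against 57.6, 56.8, 62.1 and 59.9 CPM in OVX saline. In sham mice it had 65.4, 75.7, 61.0 and 67.1 CPM with Xmo, against 54.6, 74.4 and 51.4 CPM with saline. OVX Xmo and OVX saline were nearly level, with a log2 fold change of -0.0024 ± 0.11 (SE), and sham mice spread more widely.

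Apoe had 892, 861, 836 and 718 CPM in OVX Xmo, against 908, 921, 934 and 870.4 CPM in OVX saline. It had 767, 841, 852 and 869 CPM in sham Xmo, against 865, 966 and 651 CPM in sham saline. Unlike most of the enzymes, Apoe was highest in sham saline 2 among all libraries. Cyp46a1, the neuronal cholesterol hydroxylase, had 101, 104, 99.8 and 75.3 CPM in OVX Xmo, against 80.2, 83.3, 97.7 and 102 CPM in OVX saline. In sham mice it had 69.0, 76.2, 87.5 and 93.6 CPM with Xmo, against 86.9, 85.3 and 98.6 CPM with saline. Its groups overlapped, with edgeR adjusted p of 0.568 or more in all 6 comparisons.

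A further 33 genes of lipid handling and of the branches of these routes were counted in the same fits, and all 33 were tested. In OVX saline against sham saline 2 rose and 1 fell, which is 9.09% of the 33, against 6.24% of all genes. DESeq2 passed 6 of them (18.2%), against 12.4%. Acss2, which makes acetyl-CoA from acetate, averaged 57.3 ± 1.91 CPM in OVX saline and 44.8 ± 3.77 CPM in sham saline (SD, n = 4 and 3), a log2 fold change of 0.35 ± 0.09 (SE, edgeR adjusted p = 0.0297). Gpam, which begins glycerolipid synthesis, averaged 50.7 ± 3.90 CPM in OVX saline and 38.3 ± 5.71 CPM in sham saline, a log2 fold change of 0.40 ± 0.11 (SE, edgeR adjusted p = 0.0460). Ggps1, which draws farnesyl diphosphate toward protein prenylation, averaged 45.6 ± 3.39 CPM in OVX saline and 69.0 ± 10.9 CPM in sham saline, a log2 fold change of -0.60 ± 0.14 (SE, edgeR adjusted p = 0.0298). None of the 3 overlapped between the groups, and without sham saline 2 their adjusted p were 0.117, 0.170 and 0.121. Over the 15 fits without a library the adjusted p began at 0.0169, 0.0218 and 0.0206 for Acss2, Gpam and Ggps1, and those 3 values without sham saline 2 were the highest. Without the filter on low counts they were 0.0590, 0.0797 and 0.0501, and with the replicate block 0.0637, 0.0971 and 0.0657. In the fit of both groups alone Acss2 and Gpam had adjusted p of 0.0515 and 0.0759, and with RLE size factors Gpam had 0.0507.

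In sham Xmo against sham saline 1 of the 33 rose (3.03%), against 1.51% of all genes, and DESeq2 passed 3 (9.09%), against 6.88%. The edgeR call was Npc2, which releases cholesterol from lysosomes. Npc2 averaged 58.2 ± 4.73 CPM in sham Xmo and 41.8 ± 4.39 CPM in sham saline (SD, n = 4 and 3), a log2 fold change of 0.48 ± 0.10 (SE, edgeR adjusted p = 0.0293). The groups did not overlap, and over the 15 fits without a library the adjusted p ran from 0.0206 to 0.146, with the call lost without sham Xmo 2, 3 or 4 or sham saline 3. The adjusted p was 0.0501 without the filter on low counts, 0.0861 with the replicate block and 0.190 in the fit of both groups alone. In the other 4 comparisons 0 of the 33 passed edgeR's test. At an unadjusted p under 0.05 there were 3 (9.09%) in OVX Xmo against OVX saline, against 4.18% of all genes, and 8 (24.2%) in OVX Xmo against sham Xmo, against 10.2%. There were 7 (21.2%) in OVX Xmo against sham saline, against 18.9%, and 11 (33.3%) in the interaction, against 17.4%. DESeq2 passed 0 in OVX Xmo against OVX saline, against 0.00576% of the genes to which it gave an adjusted p. It passed 1 in OVX Xmo against sham Xmo (Elovl7, 3.03%, against 0.39%). In OVX Xmo against sham saline it passed 3 (Ggps1, Acss2 and Gpam, 9.09%, against 7.11%). For the interaction it passed 3 (Hsd3b7, Npc2 and Acsl6, 9.09%, against 5.01%).

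Of miRNAs known to act on cholesterol genes, 7 were listed. miR-33 lies within an intron of Srebf2 and is known to repress Abca1, miR-27a and miR-27b share a seed, and the others were miR-144-3p, miR-106b-5p and miR-758-3p. The mature sequences of the first 3, from RefSeq (GRCm38.p6), carry the seed (bases 2 to 8) in capitals.
miR-33-5p: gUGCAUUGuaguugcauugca
miR-27a-3p: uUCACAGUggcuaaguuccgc
miR-27b-3p: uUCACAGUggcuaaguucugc
miR-33-5p averaged 2047 ± 287 CPM in OVX Xmo, 2271 ± 409 CPM in OVX saline, 2195 ± 366 CPM in sham Xmo and 2038 ± 412 CPM in sham saline (SD, n = 3 each). The 4 groups overlapped, and its log2 fold change for OVX Xmo against OVX saline was -0.15 ± 0.19 (SE, edgeR adjusted p = 0.933). miR-33-3p had at most 0.101 CPM in any library and was not tested. miR-27a-3p averaged between 1614 and 1829 CPM in the 4 groups and miR-27b-3p between 1598 and 1766 CPM, and both overlapped in every comparison.

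Among the 6 listed miRNAs that were tested, 0 passed edgeR's test in any of the 6 comparisons, 0 had an unadjusted p under 0.05, and 0 passed with DESeq2. Of all 605 miRNAs tested, 0% passed in OVX saline against sham saline, 0.165% in OVX Xmo against OVX saline, 0% in sham Xmo against sham saline, 0% in OVX Xmo against sham Xmo, 0.331% in OVX Xmo against sham saline and 0% in the interaction. The smallest adjusted p of the 6 was 0.565, for sham Xmo against sham saline in miR-144-3p, which is also known to repress Abca1. It averaged 115 ± 20.6 CPM in sham Xmo and 71.3 ± 29.6 CPM in sham saline (SD, n = 3 each), and the groups overlapped.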

How the data were processed

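Hippocampus RNA was harvested with Trizol and made into TruSeq libraries, per the labels' protocols. Per the submitters' processing notes, StringTie 1.3.3b, Bowtie2 2.3.2, Trimmomatic 0.36 and FastQC 0.11.2 were used with the build GRCm38.p6. No source used here ties a tool to a column or says whether counting used strand. The authors deposited whole-number gene counts and TPM per library, and miRNA read counts, per the file headers. A further 12 columns matched no sample and were not used.

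Here, genes past edgeR's filterByExpr (19969 of 51826, and 605 of 1387 miRNAs) were scaled by TMM and fitted with edgeR's quasi-likelihood test over the 4 groups together, which left 11 residual degrees of freedom (8 for miRNAs). P-values were adjusted by Benjamini-Hochberg over all features of a comparison, and a feature passed under 0.05. Comparisons that include the same libraries are not independent. An SE is the log2 fold change over the square root of its F value. TPM served to order genes by level and to describe group means, and no test used it. miRNA libraries held 9.66 to 11.0 × 1e+06 reads. No 2 libraries held identical values. The procedure was run on simulated counts with known changes in OVX saline. That simulation held no outlying library, so it does not bear on the influence of sham saline 2. Alternatives were DESeq2, RLE size factors, no filter, removal of mitochondrially encoded genes, fits of 2 groups, a replicate block and leaving out each library. The tools were DESeq2 1.42.0, limma 3.58.1 and edgeR 4.0.16 in R 4.3.3.

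The 37 genes, the roles, the related genes, the markers and the miRNAs were chosen with earlier results of these data known. Values in every library were set down for genes that passed in any comparison and for 11 fixed genes (Acat2, Hmgcs1, Sqle, Insig1, Stard4, Fasn, Scd2, Abca1, Apoe, Cyp46a1 and Ch25h). In a comparison with no such gene, the 3 lowest p-values were named.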

Additional observations from a re-analysis of the deposited data

Results flagged for a closer look

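In 3 groups of 4 libraries a single library stood apart from the rest by Dixon's criterion, out of 51 groups examined, of which chance would flag about 1 in 20. Ebp had 15.2 CPM in OVX Xmo 1 and between 12.1 and 12.6 CPM in the other OVX Xmo libraries. Cyp46a1 had 75.3 CPM in OVX Xmo 4 and between 99.8 and 103.7 CPM in the other OVX Xmo libraries. Sqle had 33.4 CPM in OVX saline 2 and between 36.2 and 36.5 CPM in the other OVX saline libraries. No member passed edgeR's test in OVX Xmo against OVX saline with or without any of these libraries.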

How the results depend on the processing

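Of the 37 genes, the number past the test in OVX saline against sham saline was 4 by edgeR and by DESeq2, 2 without a filter on low counts, 1 with the replicate block (Tm7sf2, the adjusted p of Acat2, Ebp and Ch25h being 0.0938, 0.0800 and 0.0739) and between 0 and 4 without a library in turn. It was 0 without OVX saline 2 or sham saline 2. For OVX Xmo against OVX saline and for OVX Xmo against sham Xmo it was 0 under every alternative run. For sham Xmo against sham saline it was 0, 3 by DESeq2 and between 0 and 2 without a library. For OVX Xmo against sham saline it was 1, 5 by DESeq2, 0 in the fit of both groups alone, 0 with the replicate block and between 0 and 3 without a library. For the interaction it was 0, 2 by DESeq2 and between 0 and 1 without a library. Over all genes the counts without a library ran from 80 to 1706, 0 to 1, 14 to 673, 0 to 3, 2 to 983 and 6 to 302 in the order of the report, against 1246, 0, 302, 2, 237 and 83 with all libraries, and from DESeq2 they were 2308, 2, 1138, 75, 1128 and 828. No log2 fold change past the test changed sign under any alternative. Alternatives for the named genes beyond those fixed at the start were added after the data had been seen. Most same-numbered libraries did not deviate together, since 4 of 21 mRNA pairs and 4 of 18 miRNA pairs had a correlation over 0.1, with highest values of 0.23 and 0.47. Other differences between libraries also enter these correlations, so they cannot exclude a pairing or a shared batch. No label states that the replicate number pairs animals, and the block was run as an alternative only. Listed miRNAs past the test were 0 in every setting. In promoter windows of 200 bases, TCACNCCAC was found in 1, CCAAT in 19 and GGGCGG in 22 promoters. The sham saline group of 3 libraries, of which sham saline 2 stands apart, limits every comparison that uses it, and the low counts of Ch25h, 4 at the least, limit its precision.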
